A study of Bos taurus with 6 samples.

Results

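Bovine bone marrow mesenchymal stem cells (MSCs) that had been compressed cyclically in agarose were compared with MSCs kept unloaded in the same gel, both at day 42 of culture with transforming growth factor beta 3 (TGF-beta3). The unloaded group spent all 42 days in defined medium with TGF-beta3. The loaded group spent 21 days unloaded in that medium and then 21 days under dynamic compression, still with TGF-beta3. The labels call both groups chondrogenic and give no strain, sex or age. Each group was measured on 1 Affymetrix bovine array, out of 6 arrays in all. The other 4 hold MSCs in agarose without TGF-beta3 at days 3, 21 and 42, and with it at day 21. The compared set was every non-control probe set with a signal over 100 on at least 1 of the day 42 TGF-beta3 arrays, which gave 8217 of 24016 probe sets and, through those with 1 gene name, 4617 of 9155 genes. The question the comparison addresses is how compression, begun once MSCs had been in TGF-beta3 for 21 days, alters their transcripts.

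With 1 array on each side there is no replicate, so no difference below has an error or a p-value, and "higher" and "lower" describe these 2 arrays. The number of arrays limits the precision. Donors, pooling of constructs and the strain and frequency of compression are not given in the sources used here. Each array holds bulk RNA, in which fewer cells of a type and less RNA per cell cannot be told apart.

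MSCs given TGF-beta3 in a hydrogel lay down a matrix of type II collagen and aggrecan, as cartilage cells do. Cyclic compression deforms the cells and this matrix and drives fluid through it. Cells are known to sense such deformation through integrins at focal adhesions, ion channels, the actin cytoskeleton and the release of growth factors held in the matrix, and immediate early genes are commonly among the first transcripts to respond.

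The cartilage label was checked on both arrays. COL2A1 (type II collagen) read 20798.8 on the unloaded and 18307.2 on the loaded array, and COMP, a cartilage matrix glycoprotein, read 8684.0 and 6135.4. Of 16 macrophage and blood cell markers on the array, 1 was over a signal of 100 on the unloaded array and 0 on the loaded array, with summed signals of 379.2 and 283.1. Of 11 endothelial markers 1 was over 100 on each array, with sums of 274.0 and 330.3. PTPRC and PECAM1, defining markers of those cells, read 20.1 and 3.36, and 20.8 and 0.594. Of 10 smooth muscle and pericyte markers, 2 and 3 were over 100, with sums of 1554.8 and 2053.9, of which ACTA2 gave 811.5 and 1196.0. Of 6 bone cell markers, 2 were over 100 on each array, IBSP (16328.8 and 11868.2) and SPP1 (3852.6 and 2589.9), both also high without TGF-beta3, while BGLAP read 2.49 and 1.94. Of 26 adipocyte markers, 8 and 11 were over 100, with sums of 8492.6 and 7979.8. Over all non-control probe sets 30.5% were over 100 on the unloaded and 30.9% on the loaded array. A marker count near that share does not tell whether a cell type was present. ADIPOQ, a defining adipocyte marker, read 0.39 and 1.25. The part of these cell types in the results was not tested.

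The arrays were scaled by the authors, so that their trimmed mean signals were equal, and the median signals were 33.4 (unloaded) and 34.9 (loaded). The hybridisation spikes, foreign transcripts added in fixed amounts, were unequal after that scaling. Their median signal over 18 probe sets was 7304.1 on the unloaded and 5822.7 on the loaded array, against 2617.9 to 3727.4 on the other 4. The loaded over unloaded ratio of the spikes was a log2 of -0.39 at the median, with a range of -0.55 to -0.28. Scaling on the spikes moves the median log2 difference of all compared probe sets from -0.02 to 0.31. The 3' to 5' signal ratio, a measure of how complete the labelled RNA is, went from 2.15 unloaded to 1.8 loaded for GAPDH, from 4.95 to 7.52 for cyclophilin and from 7.41 to 8.05 for eIF4E. The part of this in the results was not tested.

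At a 2-fold difference, 678 of the 8217 probe sets (8.25%) were higher on the loaded array and 469 (5.71%) were lower, so that 59.1% of the differing probe sets were higher. Scaled on the spikes the counts were 1273 and 210, and 85.8% were higher. Taking the brightest probe set of each gene, 285 of 4617 genes (6.17%) were higher and 243 (5.26%) lower. The quartiles of the log2 difference over all compared probe sets were -0.42 and 0.41. A signal under 15.1, the 40th percentile of all values, was set to that floor, and 24 compared probe sets had a side under it. For such a gene the fold is a lower bound. In the same terms 2645 of 8619 probe sets (30.7%) differed 2-fold in either direction between day 21 with and without TGF-beta3, against 1147 (14.0%) here.

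Many of these counts come from dim probe sets. Of the compared probe sets 6514 were over 100 on both arrays, and among these 236 (3.62%) were higher and 157 (2.41%) lower. The other 1703 entered through 1 array alone, so a difference is partly built into their selection, and they hold 442 of the higher and 312 of the lower calls. At the edge of the rule, TIMM22 (100.02 unloaded, 76.09 loaded) was just inside and PRKAB1 (94.09 and 99.98) just outside. By geometric mean signal of the 2 arrays, the standard deviation of the log2 difference was 1.35 under 100, 0.70 from 100 to 200, 0.60 from 200 to 500, 0.51 from 500 to 1000 and 0.42 from 1000. At 1000 or more, 1.18% of 1185 probe sets were higher and 1.01% lower. All 994 probe sets with a geometric mean under 100 entered through 1 array, so their share past 2-fold is set partly by the selection. The rest of the 1703 have a mean of 100 or more, so the selection bears on brighter groups as well. From 100 upward the spread narrowed as the signal grew.

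**Figure D1:**
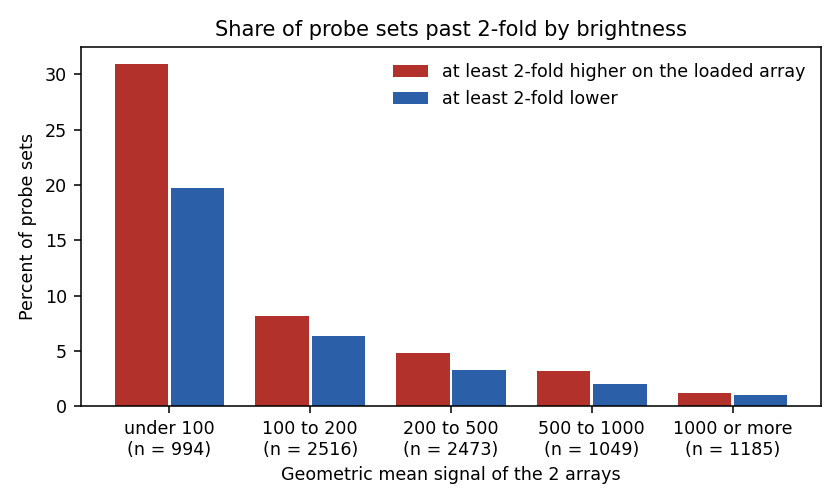
Share of compared probe sets at least 2-fold higher (red) or lower (blue) on the loaded array, in percent, by geometric mean signal of the loaded and unloaded day 42 arrays. The share that is higher goes from 30.9% of the 994 probe sets under 100, all of which entered through 1 array alone, to 1.18% of 1185 probe sets at 1000 or more.

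**Figure D2:**
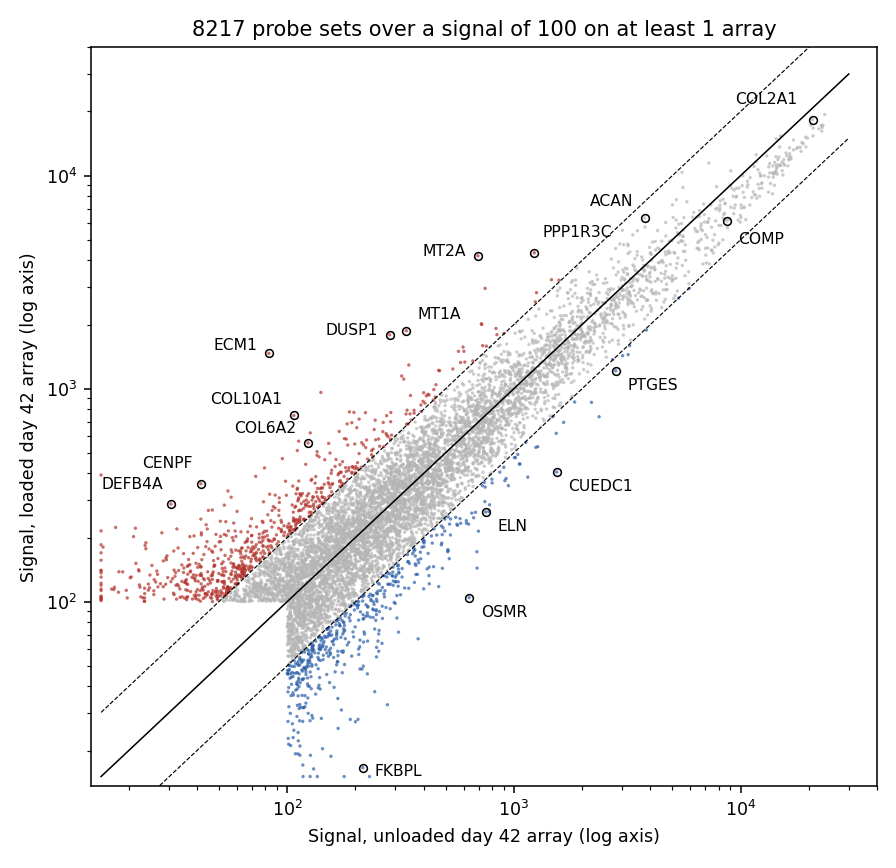
Signal of each compared probe set on the unloaded (horizontal) and loaded (vertical) day 42 arrays, both on log axes, with red for at least 2-fold higher and blue for at least 2-fold lower with loading. The solid line marks equal signal and the dashed lines 2-fold. Labelled points are the brightest probe sets of their genes. ECM1, MT2A, DUSP1 and COL10A1 lie far above the lines, and those of COL2A1, COMP and ACAN lie within them.

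Genes measured by more than 1 probe set allow a check within the arrays, though probe sets of a gene share their RNA and are not replicates. Of 851 such genes, 35 had a brightest probe set that was 2-fold higher, and the second probe set was also 2-fold higher in 7 of them (20.0%). Over all 851 genes the second probe set was 2-fold higher in 7.52%. Of 32 genes whose brightest probe set was lower, the second was lower in 8 (25%), against 6.7% over all. The sign was shared in 26 of the 35 and 21 of the 32. The median gap between both probe sets was a log2 of 0.46, and their Pearson correlation across genes was 0.28, a description, as genes are not independent and all points share the same 2 arrays. In 1 of the higher and 2 of the lower genes the second probe set passed 2-fold the other way.

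**Figure D3:**
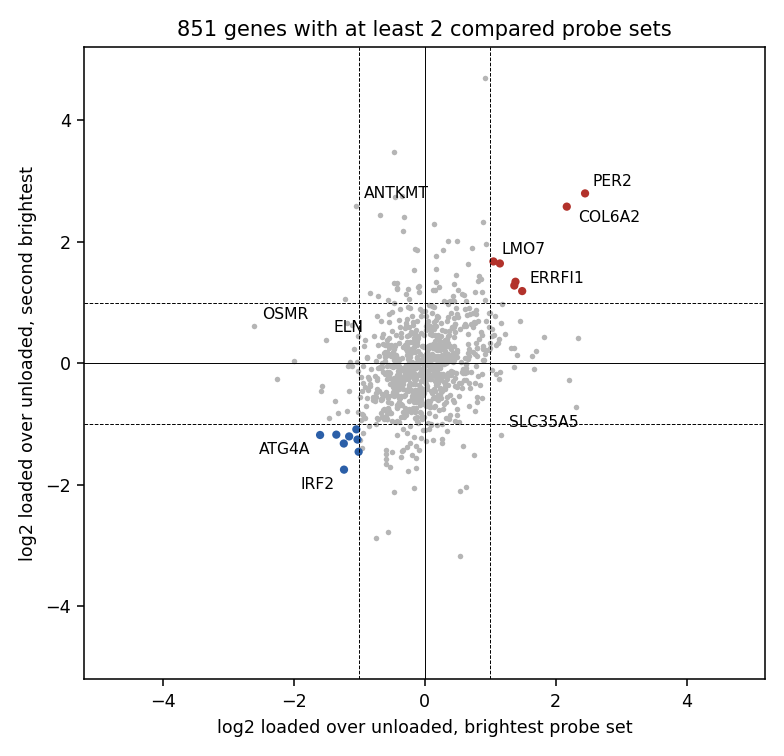
The log2 difference, loaded over unloaded, of the brightest (horizontal) and second brightest (vertical) probe set of the 851 genes with at least 2 compared probe sets, with dashed lines at 2-fold. Red marks the 7 genes with both higher and blue the 8 with both lower. OSMR, ELN, ANTKMT and SLC35A5 are labelled because their probe sets point opposite ways.

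Every compared probe set was 2-fold higher in 6 of the 851 genes (0.705%) and 2-fold lower in 8 (0.94%). With only probe sets over 100 on both arrays the counts were 0 and 5, and scaled on the spikes 24 and 0, so the 6 higher genes rest in part on probe sets that were dim when unloaded. PER2, a repressor in the circadian clock, read 56.6 unloaded and 309.1 loaded (log2 2.45), and its second probe set 14.2 and 105.2 (at least 2.80). On the other 4 arrays its brighter probe set read 116.5 to 225.5, so the unloaded array was the lowest of the 6 and the loaded array the highest. COL6A2, a chain of the type VI collagen that surrounds chondrocytes, read 123.6 and 556.0 (2.17), and 44.9 and 268.2 (2.58). The loaded array was again the highest of the 6 by both probe sets. COL15A1, a collagen of basement membranes, read 85.8 and 268.0 (1.64), and 193.6 and 429.1 (1.15). Here the loaded value lay inside the range of the other arrays, which reached 1702.3 at day 3.

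PNISR, a nuclear protein that interacts with splicing factors, read 470.1 and 1213.7 (1.37), 26.8 and 134.3 (2.33), and 41.4 and 100.5 (1.28). Both of its probe sets that were not compared were also higher, and all 5 were lowest on the unloaded array. LTV1, a factor for assembly of the small ribosomal subunit, read 85.6 and 223.8 (1.39), and 73.0 and 185.1 (1.34). The unloaded array was its lowest too. LMO7, an adhesion and transcription protein, read 41.6 and 132.9 (1.68), and 55.7 and 115.3 (1.05). The latter is at 0.99 with median centring.

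Of the 8 genes that were lower by all probe sets, GABARAPL1, which coats autophagosomes, read 1249.0 unloaded and 530.0 loaded (-1.24), and 582.3 and 233.3 (-1.32). ATG4A, the protease that processes such coat proteins, read 441.9 and 145.9 (-1.60), and 310.8 and 137.2 (-1.18), the loaded array being its lowest of the 6 by both probe sets. POP7, a subunit of RNase P, read 2199.2 and 862.1 (-1.35), and 263.1 and 116.6 (-1.17). NOP53, a ribosome assembly factor, read 1489.6 and 739.6 (-1.01), and 781.1 and 284.8 (-1.46). EIF2S3, a subunit of the translation initiation factor that brings in the initiator tRNA, read 3842.3 and 1885.0 (-1.03), and 1057.2 and 443.2 (-1.25). POLR1E, a subunit of RNA polymerase I, read 182.1 and 88.2 (-1.05), and 146.3 and 68.9 (-1.09). For POP7, NOP53 and EIF2S3 the unloaded array was the highest of the 6 by both probe sets, and the loaded values lay near or inside the range of the other arrays. The last were IRF2, a transcription factor of the interferon system, at 210.4 and 89.5 (-1.23) and 217.2 and 64.6 (-1.75), and ELMOD3 at 154.5 and 69.4 (-1.16) and 132.3 and 57.5 (-1.20).

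Each gene of the lists below is counted by its brightest probe set, beside 6.17% of all genes higher and 5.26% lower, or 11.4% past 2-fold either way. Over all lists, which held 803 genes with a name on the array, 45 genes were higher and 18 lower. Of these 18 and 10 were over 100 on 1 array alone, so that the selection bears on their direction. How many list genes were compared over all lists was not counted. The 45 and 18 are therefore not shares to set beside those of all genes. A list's count and median cover the members that passed the signal cut, and describe them without a test.

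COL27A1 and COL9A1, 2 collagens of cartilage, were 2-fold higher with loading, while the main components COL2A1, ACAN and COMP stayed within 2-fold by their brightest probe sets. Of 19 cartilage matrix genes listed, 11 had a probe set and 9 were compared. Of these 2 were 2-fold higher and 0 lower, with a median log2 of 0.26 against -0.06 over all genes (0.58 with spike scaling). COL27A1, a fibrillar collagen of cartilage, read 221.3 unloaded and 771.4 loaded (1.80). COL9A1, a chain of the type IX collagen on the surface of type II fibrils, read 411.0 and 925.0 (1.17), and by a second probe set 435.7 and 689.1 (0.66). Both genes were highest on the loaded array among the 6. ACAN, the core protein of aggrecan, read 3775.7 and 6320.7 (0.74), with 0.74 and 0.60 by its other probe sets, and its brightest value passes 2-fold only when scaled on the spikes (1.07).

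COL2A1 had no single direction. Its brightest probe set was at -0.18, near the top of the array's range, and its other probe sets were at 0.64 (1203.6 and 1871.8), 0.78 (1088.9 and 1867.1) and 1.64 (88.4 and 275.1). With quantile and spike scaling the brightest was at 0.18 and 0.14. COMP was at -0.50, and 303.2 and 157.7 by its second probe set (-0.94). COL2A1 passed 2-fold by the dimmest of its 4 probe sets alone, and COMP by neither of its own. The chondrogenic transcription factors gave no value, since 3 of the list were on the array by name and 0 were compared. Of 8 small leucine-rich proteoglycans and joint surface genes, 0 passed 2-fold (median -0.16, and 0.16 with spike scaling). PRG4, the lubricant lubricin, was at 251.8 and 244.1 by its only compared probe set, while those not compared read 27.6 and 30.6, 42.1 and 16.2, and 84.6 and 9.66.

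The largest single difference in the matrix lists was in COL10A1, the type X collagen of hypertrophic cartilage. It read 2.26, 3.73 and 16.0 without TGF-beta3 at days 3, 21 and 42, and 2.06 with it at day 21. At day 42 with TGF-beta3 it read 107.0 unloaded and 748.2 loaded, a 6.99-fold difference (log2 2.81) from 1 probe set. It was thus above the floor on no TGF-beta3 array before day 42, and highest under loading. Of the other 7 compared genes of the hypertrophy and mineralisation list 0 were 2-fold higher. MEF2C, VEGFA and ANKH were at 0.52, 0.49 and 0.42, and ENPP1 at -0.38. PTH1R, the receptor that restrains hypertrophy, was lower at 197.7 and 97.3 (-1.02, though inside 2-fold with spike scaling), and IBSP and SPP1 were at -0.46 and -0.57. The list's median was 0.02, and -0.05 with median centring.

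Among 17 compared genes of fibrous matrix, 2 were higher and 1 lower, with a median of 0.33 (7 and 1, and 0.66, with spike scaling). COL6A2 is given above. TNC, tenascin-C, an adhesion-modulating matrix protein, read 833.1 and 1917.2 (1.20), but 2573.7 to 5722.2 on the other 4 arrays, so the unloaded array was the lowest. COL1A1, type I collagen, read 3009.3 and 5541.4 (0.88). ELN, elastin, read 750.7 and 263.5 (-1.51), but its second probe set read 152.1 and 198.0 (0.38), so no direction can be given. Of 17 collagen processing genes 0 passed 2-fold (median -0.07, and 0.26 with spike scaling). FN1, fibronectin, was at -0.13 and -0.06, and TGFBI, a matrix protein induced by TGF-beta, at 1733.0 and 2813.9 (0.70).

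Of 10 genes of glycosaminoglycan synthesis 2 were higher and 0 lower (median 0.30). CHST11, a chondroitin sulphotransferase, read 75.2 and 199.0 (1.40, and 0.99 with a floor at 100). UGDH, which makes the UDP-glucuronate used for these chains, read 659.1 and 1348.7 (1.03), and is under 2-fold with median centring and quantile scaling (0.97 by each). Of 14 matrix proteases and inhibitors 4 were higher and 0 lower (median 0.07). PLAU, urokinase, read 202.7 and 655.4 (1.69). TIMP3, a matrix-bound protease inhibitor, read 349.8 and 928.7 (1.41). For both genes the loaded array was the highest of the 6. MMP3, stromelysin, read 48.1 and 182.0 (1.92, but 0.86 with a floor at 100), and its other probe sets 15.6 and 15.5, and 10.8 and 17.4. MMP14 read 120.8 and 281.4 (1.22), and 99.0 and 138.7 (0.49).

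**Figure D4:**
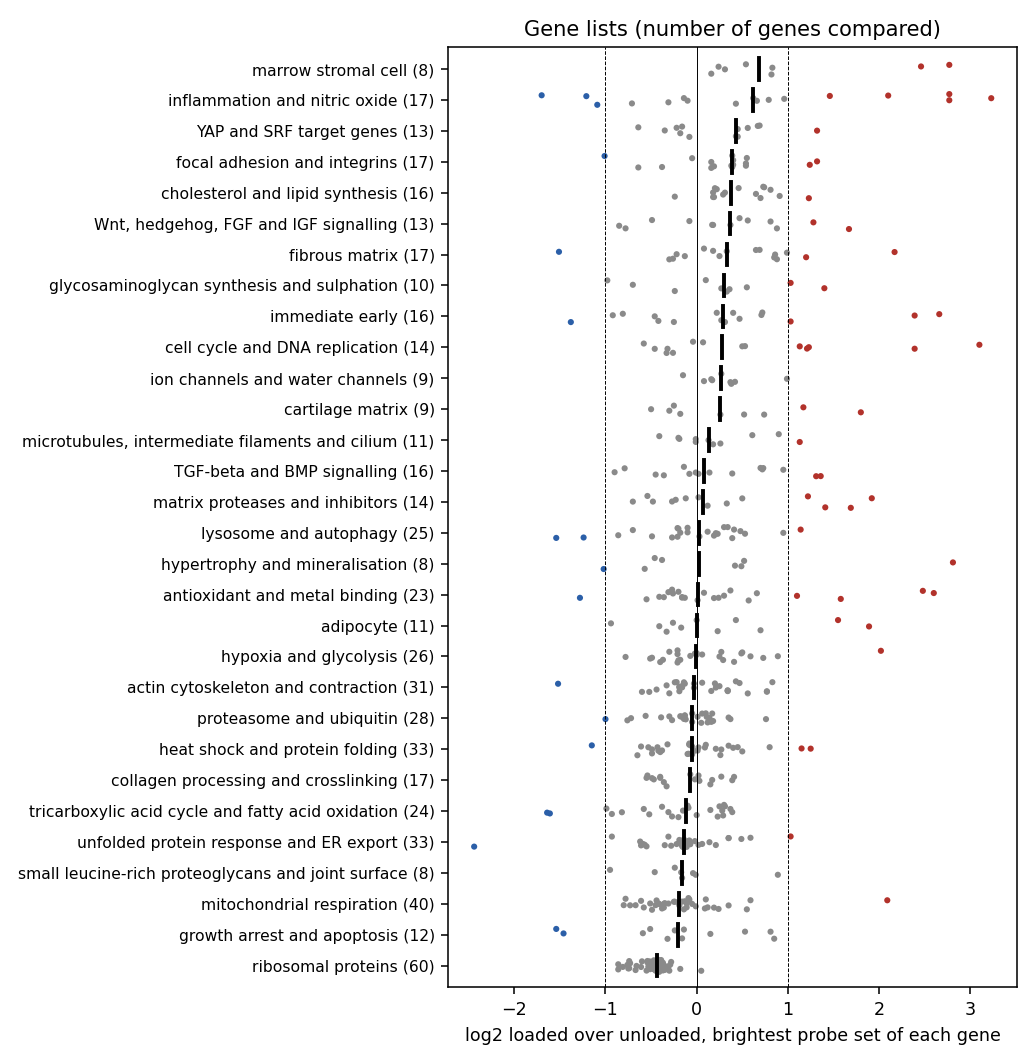
The log2 difference, loaded over unloaded, of each compared gene (points) in 30 gene lists, with the number of genes in brackets and black bars for the list medians. Red and blue mark 2-fold higher and lower. Ribosomal protein genes lie together at a median of -0.44, and genes of inflammation spread from HP at -1.70 to DEFB4A at 3.23.

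In the signalling lists BMP2, ID2, IGFBP4 and DKK1 were 2-fold higher with loading and 0 compared genes were lower. Of 16 TGF-beta and BMP genes 2 were higher and 0 lower (median 0.08). They were the ligand BMP2, at 122.3 and 313.8 (1.36), and ID2, an inhibitor of differentiation factors that BMPs induce, at 121.3 and 299.9 (1.31). A dim probe set of ID2 that was not compared read 42 and 28.7 (-0.55). The related genes ID1 and ID3 were at 0.02 and -0.01. Of 13 genes of Wnt, hedgehog, FGF and IGF signalling, 2 were higher and 0 lower (median 0.37). Both are secreted inhibitors, IGFBP4 of IGF at 39.3 and 125.2 (1.67) and DKK1 of Wnt at 61.1 and 147.9 (1.28), and both were dim when unloaded. With spike scaling 6 TGF-beta and BMP genes were higher and 0 lower, and 4 and 0 of the list with Wnt. The list with Wnt gave 2 and 1 with quantile scaling, and 0 and 0 with a floor at 100. IGFBP5 was at 476.1 and 702.3 (0.56).

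Vinculin and zyxin, of the focal adhesions, were 2-fold higher by their brightest probe sets. Of 13 YAP and SRF target genes 1 was higher and 0 lower (median 0.43), and the YAP targets CCN1 and CCN2 were at -0.18 and -0.35. Of 17 focal adhesion and integrin genes 2 were higher and 1 lower (median 0.39, and 2 and 0 with spike scaling). VCL, vinculin, read 118.4 and 295.4 (1.32), and 565.5 to 1036.8 on the other arrays. ZYX, zyxin, read 124.0 and 292.9 (1.24), and 91.0 and 71.9 by another probe set. PTK2, focal adhesion kinase, read 293.0 and 145.2 (-1.01) by 1 probe set and 93.7 and 127.7 (0.45) by another. Of 9 ion and water channel genes 0 passed 2-fold (median 0.27). Of 31 genes of the actin cytoskeleton 0 were higher and 1, CFL2, was lower (127.4 and 44.4, -1.52, but -0.35 with a floor at 100). ACTB was at 0.34.

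Of 16 compared immediate early genes 3 were higher and 1 lower (median 0.29), and the members went different ways. DUSP1, a phosphatase that switches off MAP kinases, read 282.9 unloaded and 1789.3 loaded (6.33-fold). Without TGF-beta3 it read 1691.2, 1493.0 and 1706.6, and with it at day 21, 259.7. So the loaded array had the level of the arrays without TGF-beta3, and both unloaded TGF-beta3 arrays were lower. ZFP36, which speeds decay of inflammatory mRNAs, read 43.9 and 229.7 (2.39), and 20.8 to 88.6 elsewhere. IER3, an early survival gene, read 1579.1 and 3228.5 (1.03, and 0.97 with median centring). EGR1, a transcription factor of the same class, was lower, at 308.6 and 118.2 (-1.38), and at 94.5 and 36.8 by its second probe set.

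Of 17 compared genes of inflammation and nitric oxide 5 were higher and 3 lower, with a median of 0.62 (7 and 1, and 0.95, with spike scaling). With a floor at 100 the counts were 3 and 2 and the median 0.05, and with a floor at the 60th percentile 3 and 3. DEFB4A, CXCL12 and S100A12 were over 100 on the loaded array alone. The 4 with the largest differences were all higher at day 42 without TGF-beta3 than on either day 42 array with it. DEFB4A, a beta-defensin, read 942.8, 932.3 and 2283.5 without TGF-beta3, 108.6 with it at day 21, and 30.7 unloaded and 287.1 loaded at day 42 (9.36-fold). EBD, another beta-defensin, whose family shares sequence so that its probes may pick up related transcripts, read 1641.1, 3780.3 and 5629.8, then 1059.1, then 140.8 and 959.6 (6.82-fold). CXCL12, a chemokine of marrow stroma, read 591.3, 316.9 and 255.4, then 14.1, then 4.15 and 103.6, which is at least 6.84-fold higher with loading. S100A12, a calcium-binding protein of inflammation, read 7151.8 at day 42 without TGF-beta3 and 23.4 and 100.3 here (2.10). NFKBIZ, a regulator of NF-kappa-B, was at 116.8 and 321.8 (1.46) and 149.8 and 243.0 (0.70).

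The lower members of that list include enzymes of prostaglandin synthesis. PTGES, prostaglandin E synthase, read 8.56 to 46.1 without TGF-beta3, 547.5 with it at day 21, and 2812.7 unloaded and 1213.2 loaded at day 42 (-1.21). With quantile scaling it was at -0.99 and on the spikes at -0.89. PTGS1, a cyclooxygenase, read 174.4 and 81.7 (-1.09). The inducible cyclooxygenase PTGS2 read 802.1 and 610.3, 978.9 and 517.7, and 306.2 and 490.4, without a common direction. HP, haptoglobin, an acute phase protein, read 697.5 and 214.2 (-1.70).

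Of 17 marrow stromal genes on the array 8 were compared, with 2 higher and 0 lower. All 8 were above 0 (median 0.68, and 0.43 with a floor at 100, against -0.06 over all genes). Both were over 100 on the loaded array alone, and with a floor at 100 neither passed 2-fold (0.05 and 0.68). Members left out as dim went different ways. NES read 93.5 unloaded and 41.1 loaded and MCAM 35.3 and 20.7, but ENG read 26.2 and 47 and PDGFRB 84.2 and 87.1. The 2 higher genes are CXCL12 and MEOX2, a homeobox gene, which read 405.5, 379.3 and 369.7 without TGF-beta3, 63.6 with it at day 21, and 29.2 and 160.6 here (2.46). The summed signal of the 17 on the array was 4928.0 unloaded and 6200.0 loaded. Of 16 genes of cholesterol and lipid synthesis 15 were above 0, with a median of 0.38 against -0.06 over all genes. Only 1 was 2-fold higher (6 with spike scaling), EBP, a sterol isomerase, at 96.7 and 227.0 (1.23). The share of all genes above 0 was not counted, so these sign counts have no background beside them.

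Of 23 genes of antioxidant defence and metal binding 4 were higher and 1 lower (median 0.01). The metallothioneins, small proteins that bind zinc and copper, led. MT2A read 693.8 and 4202.1 (6.06-fold) and MT1A 335.1 and 1869.8 (5.58-fold), each the highest of its 6 arrays. Their sequences are much alike, so these need not be separate measurements. NQO1 and GCLC, targets of NRF2, were at 57.1 and 170.6 (1.58) and 53.8 and 115.1 (1.10). Both were over 100 on the loaded array alone, so the selection bears on their direction. With a floor at 100 the list's counts were 2 higher and 1 lower. TXNRD1, another NRF2 target, was at 300.7 and 123.8 (-1.28, and inside 2-fold with spike scaling).

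Of 14 genes of the cell cycle 5 were higher and 0 lower (median 0.28), and 3 and 0 with a floor at 100. CENPF, CCNE1 and MCM7 were over 100 on the loaded array alone. CENPF, a kinetochore protein of dividing cells, read 41.6 and 357.7 (3.10) by 1 probe set and 20.6 and 36.5 by the other. CCNE1, cyclin E1, read 26.6 and 139.1 (2.39), and 38.9 and 29.6 by another. UBE2C read 173.1 and 405.2 (1.23), but 641.0 with TGF-beta3 at day 21, and MCM7 read 71.5 and 165.0 (1.21). STMN1, which destabilises microtubules, read 607.5 and 1332.4 (1.13), below the 1910.8 to 5619.0 of the other arrays. In the list of growth arrest and apoptosis 0 of 12 were higher and 2 lower (median -0.20, 0.13 with spike scaling). The 2 were the cell cycle inhibitor CDKN2C at 232.4 and 84.5 (-1.46) and MDM2, which degrades p53, at 272.8 and 93.9 (-1.54). Both were over 100 on the unloaded array alone, so the selection bears on their direction. With a floor at 100 they were at -1.22 and -1.45. The counts of this list were 2 and 2 with spike scaling, and 1 and 3 with the median over probe sets.

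In the metabolic and protein handling lists between 1 and 3 genes of each passed 2-fold. Heat shock gave 2 higher and 1 lower of 33, the unfolded protein response 1 and 1 of 33, glycolysis and hypoxia 1 and 0 of 26, mitochondrial respiration 1 and 0 of 40, the tricarboxylic acid cycle and fatty acid oxidation 0 and 2 of 24, the proteasome 0 and 1 of 28 and lysosome and autophagy 1 and 2 of 25. BAG3, a co-chaperone of mechanically strained proteins, read 143.4 and 342.0 (1.25), and HSPB6 422.2 and 933.8 (1.15). ACO1 and HADHA, of iron sensing and fatty acid oxidation, were at 219.2 and 70.4 (-1.64) and 299.6 and 98.1 (-1.61). They too were over 100 on the unloaded array alone, and with a floor at 100 were at -1.13 and -1.58. Ribosomal proteins had 0 of 60 past 2-fold but lay together at a median of -0.44, with a range of -0.86 to 0.05 and a standard deviation of 0.16 between genes. The spikes lay at -0.39 with a standard deviation of 0.07, and the ribosomal median was -0.12 with spike scaling and -0.09 with quantile scaling. Of 11 adipocyte genes 2 were higher and 0 lower (median 0.00), and 2 and 1 with median centring. FABP3 read 184.9 and 543.4 (1.55) and LPIN1 37.5 and 139.2 (1.89, but 0.48 with a floor at 100), while the fatty acid carrier FABP4 read 434.4 and 225.8 (-0.94) and PLIN2 was at -0.26.

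Over all genes, the largest ratio with both arrays above the floor was that of ECM1, extracellular matrix protein 1, which binds other matrix proteins. It read 898.5, 388.5 and 353.0 without TGF-beta3 at days 3, 21 and 42, and 240.6 with it at day 21. At day 42 with TGF-beta3 it read 83.0 unloaded and 1463.5 loaded, 17.6-fold higher (log2 4.14). The loaded array was thus the highest and the unloaded array the lowest of the 6. Next by size came DEFB4A, CENPF, RGS3 (18.1 and 138.1, 2.93), BCLAF1 (28.0 and 210.5, 2.91), COL10A1, EBD, AMY2B (32.6 and 219.4, 2.75), ACCS (22.1 and 141.1, 2.67) and DUSP1. RGS3, BCLAF1, AMY2B and ACCS were dim when unloaded. AMY2B had a further probe set at 0.37, and ACCS had others at -0.53 and 0.45.

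The 10 lowest genes were mostly dim when loaded. FKBPL, an immunophilin-like protein, read 215.5 and 16.6 (-3.69), GNAT2 155.9 and 18.8 (-3.05), the GTPase RHOG 130.8 and 16.4 (-2.99), the ubiquitin ligase LRSAM1 143.1 and 20.4 (-2.81) and RANGAP1, of nuclear transport, 126.6 and 19.0 (-2.74). FMR1, a regulator of translation, read 243.3 and 37.8 (-2.68) and the corepressor TLE3 378.0 and 66.9 (-2.50). TLCD5 was at -2.49. The chaperone HYOU1 read 113.8 and 21.0 (-2.44, but -0.19 with a floor at 100), and its dimmer probe sets above the floor were at 0.39, 0.06 and -1.19. OSMR, the oncostatin M receptor, read 634.8 and 104.4 (-2.60), but its other compared probe sets read 148.9 and 226.7 (0.61) and 102.0 and 159.0 (0.64), so it has no direction here.

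Of 1556 genes with a geometric mean signal of at least 500, where the spread is small, 29 were higher and 21 lower, of which 23 and 4 were so under all 4 scalings tried. These genes were looked at after the values were seen. The higher ones include MT2A, MT1A, DUSP1 and the matrix genes COL9A1, TNC and TIMP3, given above. ECM1, at 83 on the unloaded array, has a lower mean and is not among them. PPP1R3C, which directs a phosphatase to glycogen, was higher at 1230.6 and 4343.3 (1.82), with 1.02 and 0.44 by its other probe sets. PRSS23, a secreted serine protease, read 319.9 and 1146.2 (1.84). ERRFI1, a feedback inhibitor of the EGF receptor, read 717.9 and 2014.7 (1.49) and 581.6 and 1326.3 (1.19), and its dimmer probe sets were at 0.85 and 0.01. The loaded array was the highest of the 6 for all 3 genes by their brightest probe sets.

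Others were RNA-binding proteins, SRSF5 at 343.8 and 1291.0 (1.91), RBM3, known to be induced by cold, at 569.0 and 1496.3 (1.39), and TRA2A at 841.4 and 1792.7 (1.09) with 0.31 by its second probe set. RBM3 read 1137.8 to 1951.3 on the other 4 arrays, so the unloaded array was its lowest and the loaded value lay inside their range. ANGPTL2, a secreted angiopoietin-like protein, read 601.9 and 1497.7 (1.32), and 4.32 at day 42 without TGF-beta3. LAMC1, a laminin chain, read 334.3 and 760.3 (1.19), and its other 4 compared probe sets were at 0.97, 0.83, 0.62 and 0.29. All 5 of them were lowest on the unloaded array.

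The bright lower genes were led by CUEDC1 at 1544.5 and 405.9 (-1.93), CYP20A1 at 1151.9 and 384.1 (-1.58, and -0.45 by another probe set) and ZCCHC9 at 945.6 and 350.3 (-1.43). CUEDC1 read 161.2 to 323.9 on the other 4 arrays, so its unloaded value stands apart from all 5 others. Its dim probe sets, which were not compared, read 68.4 and 60.2 (-0.19), 9.9 and 42.8, and 19.4 and 69.0 (1.83). NRN1, neuritin, read 3017.0 and 1426.9 (-1.08), after 1141.4 with TGF-beta3 at day 21, and EIF4A2, a translation initiation helicase, 3190.4 and 1444.0 (-1.14). Both are under 2-fold with quantile and spike scaling.

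**Figure D5:**
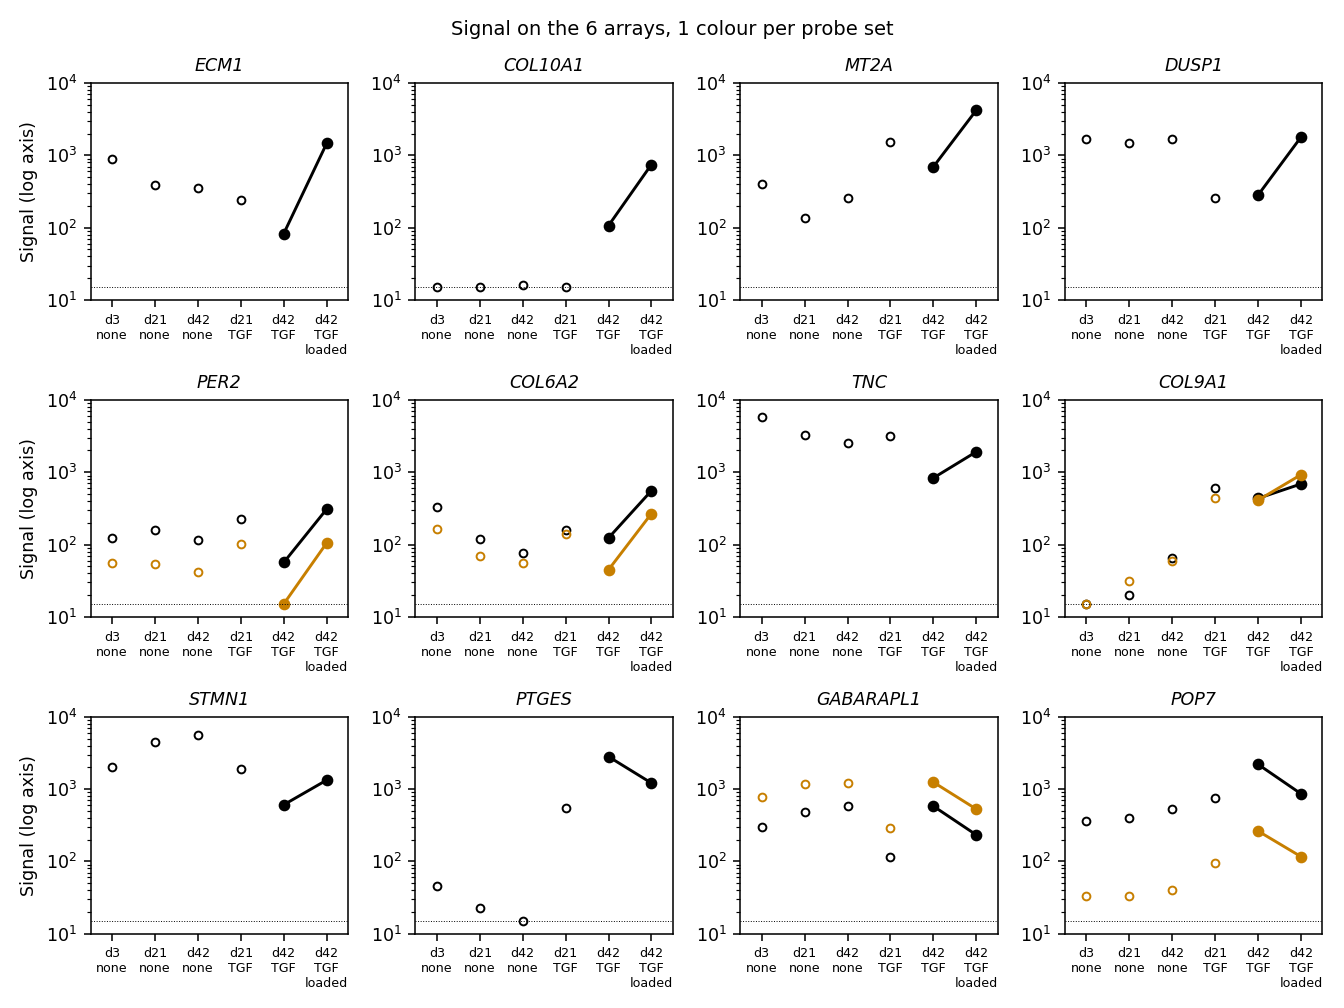
Signal on a log axis of 12 genes on the 6 arrays, in the order without TGF-beta3 at days 3, 21 and 42, with TGF-beta3 at day 21, and unloaded and loaded at day 42. Each colour is a probe set, the line joins the compared arrays and the dotted line is the floor of 15.1, at which lower values are drawn. COL10A1 is over 100 at day 42 with TGF-beta3 alone, and for TNC and STMN1 the unloaded array is the lowest.

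The other arrays show which side of each difference departs from the rest. Of the 285 higher genes the loaded array was the highest of the 6 in 144 (50.5%) and the unloaded array the lowest in 155 (54.4%), with both true in 42. Of the 243 lower genes the loaded array was the lowest in 80 (32.9%) and the unloaded array the highest in 177 (72.8%), with both in 31. Over all 4617 genes the loaded array was highest in 17.7% and lowest in 12%, and the unloaded array highest in 29.4% and lowest in 16.0%. Among the lower genes the unloaded array was more often the highest than the loaded array was the lowest. The same order held over all genes (29.4% and 12%), so it is not particular to the lower calls. These shares are set partly by the choice of the genes on the same values.

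The comparison of day 21 with and without TGF-beta3 shares no array with the loading pair. In it 687 of the 4617 genes (14.9%) were 2-fold higher with TGF-beta3 and 448 (9.7%) lower. Of the 285 genes higher with loading, 62 (21.8%) were higher with TGF-beta3 at day 21 and 46 (16.1%) lower, which are 9.02% and 10.3% of those TGF-beta3 genes. Of the 243 genes lower with loading, 39 (16.0%) were higher with TGF-beta3 and 36 (14.8%) lower, or 5.68% and 8.04%. Both directions of the TGF-beta3 difference were thus present among genes of both directions of the loading difference. The genes that differed with loading were also dimmer, with median signals of 114.9 and 124.2 against 296.6 over all genes.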

How the data were processed

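RNA was amplified linearly (NuGEN ribo-SPIA), labelled with biotin and hybridised, per the labels' protocols. The authors deposited 1 linear signal intensity for each probe set. The submitters' processing notes name MAS5 without a version. The 2% trimmed mean was 150.0 on every array. This scaling was kept, 112 controls were left out, values under the 40th percentile (15.1) were set to it, and log2 ratios were taken. Of the 8217 probe sets 5698 had 1 gene, 40 several and 2479 no name. Of these names 5687 were found through Entrez identifiers, 0 with another symbol. Genes took their brightest probe set by mean log2 signal over the arrays. No test was possible with 1 array a side. The size rule was tested on simulated data with less noise than these arrays show and with changes put only into bright probe sets. That test checks the calculation and cannot give the error of the 2-fold calls here.

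The members and the 37 gene lists were chosen with earlier results of these data known. Named genes were those with at least 2 compared probe sets all past 2-fold, the 10 at each end of the log2 difference whose signals both exceeded the floor, the 2 highest and 2 lowest of each list past 2-fold, and ACAN, COL2A1, COL1A1, COL10A1, COMP, PRG4, FN1, TGFBI, IGFBP5, GAPDH and ACTB, without placeholder symbols. Genes bright on both arrays, further list members and the genes of the closing observations were named after their values were seen. Alternatives were median, quantile and spike scaling, other floors and signal cuts, a pseudocount, 1.5-fold and 3-fold rules and medians of probe sets. The scripts ran in Python 3.11.15 with pandas 2.3.3, numpy 2.4.6 and, for plots, matplotlib 3.10.9.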

Additional observations from a re-analysis of the deposited data

How the results depend on the processing

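No paired analysis was possible because there was 1 array per condition and no replicate number above 1. The counts of probe sets 2-fold higher and lower (678 and 469) were 1273 and 210 with spike scaling, 314 and 219 with a floor at 100, 1271 and 959 with signals over 50, 314 and 219 over 200, 236 and 157 over 100 on both arrays, 1504 and 1377 at 1.5-fold, 230 and 115 at 3-fold and 285 and 243 with 1 value per gene. Members of the lists (45 higher, 18 lower) were 82 and 10 with spike scaling, 92 and 64 at 1.5-fold and 20 and 4 at 3-fold. Genes with all probe sets past 2-fold (6 and 8) were 24 and 0 with spike scaling, 20 and 19 over 50, 0 and 5 over 100 on both arrays, 36 and 39 at 1.5-fold and 2 and 0 at 3-fold, and 2 higher with a floor at 100 and 3 over 200. Changed cuts and folds alter by construction how many probe sets can pass, and spike scaling shifts every log2 value upward. Of the genes also 2-fold different with TGF-beta3 at day 21 (62, 46, 39 and 36 in the order above), 28, 16, 13 and 12 were left with a floor at 100. Spike scaling gave 122 for those higher with loading and lower with TGF-beta3 and 12 for lower and higher, and the pseudocount gave 25 for the latter. These alternatives of the day 21 counts were added after the data were seen. With the median over probe sets, ANTKMT (0.77) and OSMR (0.61) changed sign, since their probe sets disagree. Of 132 named genes 116 were past 2-fold, and 91 with spike scaling or a floor at 100. Under all 4 scalings 252 genes were higher and 98 lower, and 123 and 46 with a floor at 100 as well.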

Other observations

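Genes of the circadian clock and of zinc handling were looked up after PER2 and the metallothioneins were seen, and no test or explanation is attached to them. Of the clock genes, CRY1 read 78.0 on the unloaded and 110.6 on the loaded array (log2 0.50), BHLHE40 683.0 and 754.6 (0.14) and 366.7 and 697.0 (0.93), and NFIL3, which acts against their targets, 2681.3 and 2481.1 (-0.11) and 436.4 and 322.4 (-0.44). NR1D1 was under 100 on both arrays, at 68.4 and 61.4. PER2 was the only one of these 5 past 2-fold.

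Another metallothionein, MT3, read 52.7 and 124.7 (1.24), against 7.26 to 20.7 on the other 4 arrays. The zinc exporter SLC30A1 read 126.2 and 125.7. The glucocorticoid-induced genes SGK1 and FKBP5 were bright, at 3047.2 and 2694.5 (-0.18) and at 2256.5 and 1803.7 (-0.32), and neither passed 2-fold by its brightest probe set.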
